A study of Mus musculus with 6 samples.

Results

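Solute carriers are membrane proteins that move amino acids, sugars, ions, metals, vitamins, lipids and metabolites across the plasma membrane and the membranes of lysosomes and mitochondria. The solute carriers described here were the gene symbols of the Slc pattern, Slc2a5 left out, that held 100 or more unique molecular identifiers (UMIs, each one captured RNA molecule) summed over the nuclei of 6 single-nucleus libraries. Of 334 such symbols among 31053 features, 166 met the rule, 121 held 1 to 99 UMIs and 46 were at 0. The members nearest the limit were Slc19a2 at 100, Slc27a3 at 103 and Slc25a27 at 115 UMIs, and Slc7a15 at 97, Slc4a10 at 96 and Slc9a5 at 94 UMIs fell just outside. Slc2a5 held 2408 UMIs and was excluded by name.

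The nuclei came from the hippocampus of 9.5-month-old mice and were sorted for PU.1, a transcription factor of the myeloid lineage. There were 6 libraries, 1 for each genotype, and each pooled the hippocampi of 3 mice, so a difference between mice of 1 genotype was not measured. Tau P301S, a mutant form of the microtubule protein tau, was combined with human APOE4 in the P301S/E4 background and with loss of Apoe in the P301S/EKO background. The E4 background carried APOE4 without the tau mutation, so no group without both APOE4 and tau P301S was measured. Each background had 1 library with Trem2, a lipid-sensing receptor of microglia, present (TREM2+) and 1 with it deleted (TREM2-). The promoter of the tau transgene is not given in the sources used here. Where a gene has 6 values, the first pair is P301S/E4, the second pair P301S/EKO and the last pair E4, with TREM2+ before TREM2- in each pair. They are in CPM, the UMIs of a gene for each 1000000 UMIs of its library.

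Microglia, the resident phagocytes of the brain, digest lipid, protein and iron-bearing debris in lysosomes, and the products leave the lysosome through carriers. Cystine import supports glutathione synthesis, and iron reaches the cytosol through proton-coupled divalent metal carriers and leaves the cell through ferroportin, the product of Slc40a1. Many amino acid exchangers work as a pair, a light chain of family 7 bound to the heavy chain made from Slc3a2.

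The 31525 nuclei analysed, of 33335 deposited, had a median of 568 to 914 UMIs per library, and each library held 3080103 to 8247020 UMIs. Of 33220 distinct barcodes, 115 occurred in 2 or more libraries. Trem2 measured 1129, 586.6, 1000.1, 482.1, 947.3 and 370.5 CPM, so transcript of the deleted gene was still counted in the TREM2- libraries. Apoe measured 13.7 and 8.77 CPM in the P301S/EKO libraries against 173.1 to 1174 CPM in the others. The 8 microglia markers summed to 10524 to 19046 CPM, border-associated macrophage markers to 133 to 518 CPM, neuron markers to 65.7 to 178.6 CPM and astrocyte markers to 50.3 to 177.3 CPM. Nuclei were kept only with fewer than 5 UMIs over Snap25, Syt1, Meg3, Rbfox1 and Slc1a2. The neuron marker sums, which hold all of these but Slc1a2, were limited by this rule. P301S/E4/TREM2- stood apart: it held 232 nuclei with a UMI of the cycling genes Mki67 or Top2a against 13 to 29 elsewhere, and 395 nuclei with a UMI of Ahnak or Cd38 against 26 to 87 elsewhere. Its 5 monocyte markers summed to 43.5 CPM against 14.6 to 20.2 CPM elsewhere, and its neuron, endothelial (31.3 CPM) and ependymal or choroid plexus (75.3 CPM) marker sums were the lowest of the 6 libraries.

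All 166 members were detected in each library. Together they held 265842 UMIs, 0.956% of those analysed, and the 10 members with the most UMIs held 33.5% of that sum. They were Slc25a3, the mitochondrial phosphate carrier, with 13273 UMIs, then Slc38a2, Slc16a6, Slc11a1, Slc25a36, Slc38a9, Slc25a37, Slc1a3, Slc15a3 and Slc6a6, the last with 7461 UMIs. A UMI total counts captured transcripts and is no level per length, so it was not used to rank genes by expression. By family, the members comprised 35 mitochondrial carriers, 27 carriers of ions and protons, 24 of amino acids, 22 of metals, 13 of sugars, 9 of vitamins, 7 of monocarboxylates and 29 others. For 23 members the total would be under 100 without the background in which they were highest, so a difference there was favoured by the rule. Among the members called below, these are Slc2a6 and Slc13a3 with tau and Slc6a8 with APOE4, whose values are given as a description, with the fitted p supporting nothing further.

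Tau P301S was compared over the 2 TREM2 genotypes, as P301S/E4 minus E4. The additive fit in edgeR (quasi-likelihood test, adjusted p from the Benjamini-Hochberg method over all 12054 genes tested) covered 165 members. Of these, 15 rose, where 7.67% of all genes rose, and 11 fell, where 7.17% of all genes fell. Called in either direction were 15.8% of members against 14.8% of all genes, and the median log2 fold change was 0.03 over members and -0.00 over all genes. The share of members called was thus close to the share of all genes. It includes Slc2a6 and Slc13a3, whose differences the rule favoured. Both P301S/E4 libraries were above both E4 libraries for 59 members, against 32.0% of all genes, and below both for 39, against 22.3%. Read library against library, the 95% counting interval of the log2 ratio lay above 0 for 38 of 166 members in TREM2+ (20.0% of 11453 genes with 100 or more UMIs) and 55 in TREM2- (32.9%), and below 0 for 29 in TREM2+ (17.6%) and 29 in TREM2- (18.2%). In sums over nuclei, more nuclei carrying a transcript and more transcript per nucleus cannot be told apart.

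**Figure D1:**
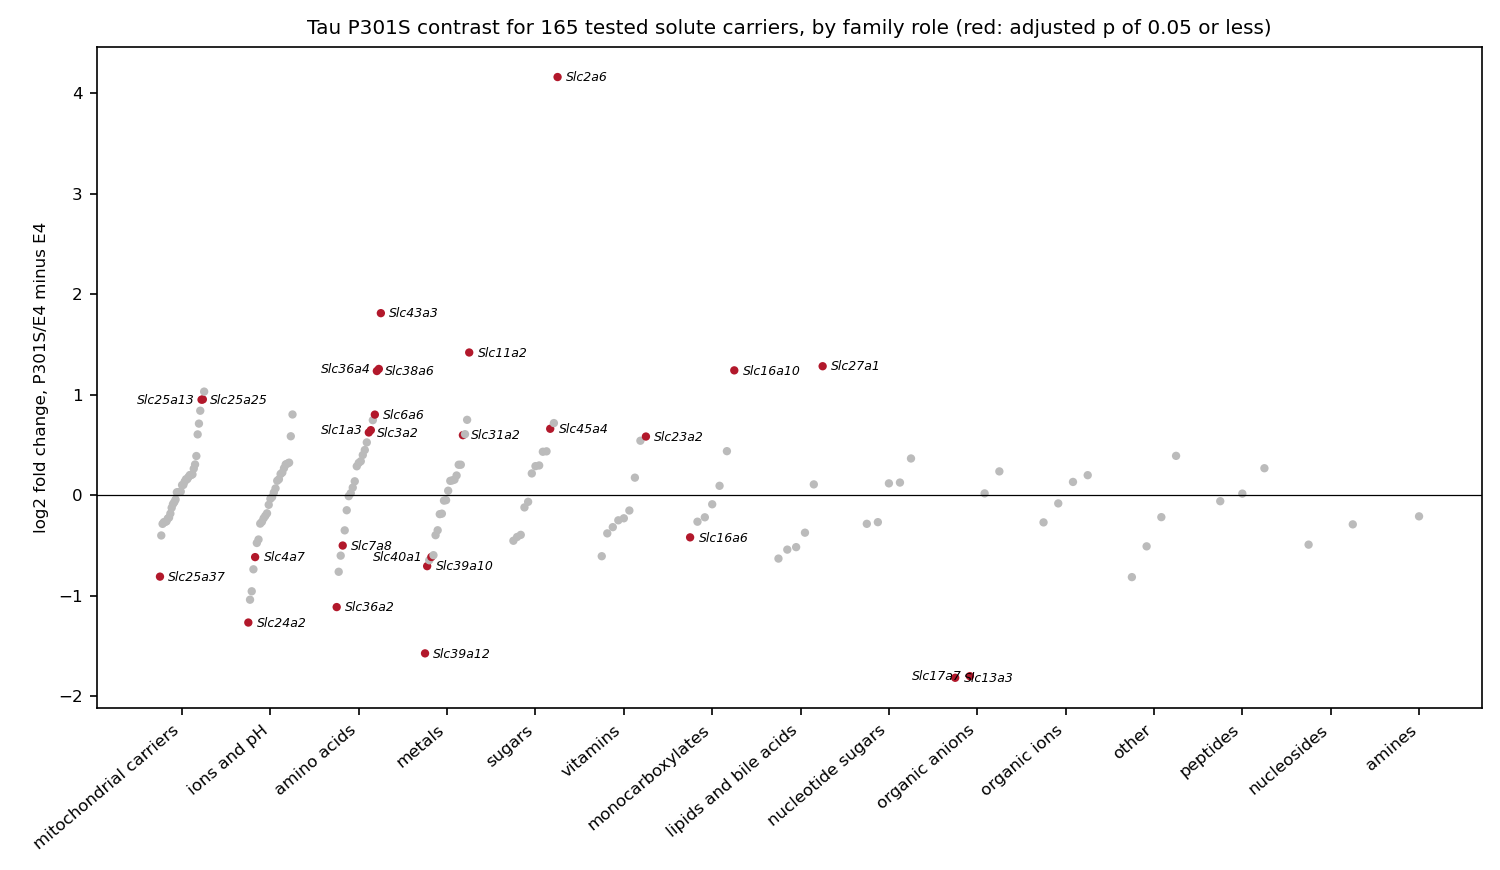
Log2 fold change of 165 tested solute carriers in the tau contrast (P301S/E4 minus E4, 2 libraries against 2), each point 1 gene, grouped by the role of its family, with genes at an adjusted p of 0.05 or less in red. The 15 members that rose and the 11 that fell are spread over 9 of the 15 roles, and Slc2a6 stands highest at 4.16.

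Slc2a6, which encodes a hexose transporter of intracellular membranes, had the largest change of any member tested (ENSMUSG00000036067, GRCm38 chr2:27021363-27027998, minus strand). It measured 17.2, 25.5, 10.7, 6.17, 0.588 and 1.59 CPM. Both E4 libraries were below all 4 tau libraries, and they held only 2 and 6 UMIs. Outside P301S/E4 it held 66 of its 374 UMIs, so it is a member only through the background where it was highest, and the rule favoured this difference. Its log2 fold change with tau was 4.16 (SE 0.47, adjusted p 7.1e-05 in edgeR). Because of the low counts, the ratio within each TREM2 genotype is better read with its 95% counting interval. The log2 ratio was 4.87 in TREM2+ (2.98 to 7.94) and 4.00 in TREM2- (2.85 to 5.46). Slc45a4, of a family of proton-coupled sugar carriers, rose by less (0.66, SE 0.18), and the other 11 sugar carriers did not pass the test. Among them were Slc2a1, the main glucose transporter of many cells (0.30, SE 0.28), and Slc37a2, a sugar phosphate exchanger (0.29, SE 0.16). Of 13 sugar carriers, 2 thus rose and 0 fell, beside 7.67% and 7.17% of all genes. Those that rose include Slc2a6, whose difference the rule favoured.

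The 250 bases before the transcription start of Slc2a6 are from RefSeq (GRCm38.p6, chr2:27027999-27028248, minus strand). They are shown with those of Slc36a4 (chr9:15709488-15709737, plus strand) and Slc16a10 (chr10:40142255-40142504, minus strand), whose tau calls held in every alternative. The rule favoured the difference of Slc2a6, so its own calls support nothing further. Slc25a13 (chr6:6217174-6217423, minus strand) is added as a member that rose and holds an E-box, CACGTG, written in capitals.
Slc2a6: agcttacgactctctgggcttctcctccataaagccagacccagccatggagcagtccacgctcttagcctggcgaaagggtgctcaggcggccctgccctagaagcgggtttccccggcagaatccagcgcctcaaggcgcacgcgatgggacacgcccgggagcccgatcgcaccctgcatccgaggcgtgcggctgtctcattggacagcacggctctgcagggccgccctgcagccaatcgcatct
Slc36a4: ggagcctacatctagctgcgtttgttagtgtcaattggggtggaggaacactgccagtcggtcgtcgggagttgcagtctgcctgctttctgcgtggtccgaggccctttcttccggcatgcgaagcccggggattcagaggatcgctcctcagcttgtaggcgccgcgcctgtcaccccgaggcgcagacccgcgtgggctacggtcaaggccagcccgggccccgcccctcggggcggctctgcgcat
Slc16a10: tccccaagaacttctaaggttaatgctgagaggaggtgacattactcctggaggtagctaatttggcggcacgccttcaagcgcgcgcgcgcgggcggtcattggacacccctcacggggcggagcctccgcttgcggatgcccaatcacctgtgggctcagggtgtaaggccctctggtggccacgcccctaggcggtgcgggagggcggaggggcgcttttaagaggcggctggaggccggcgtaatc
Slc25a13: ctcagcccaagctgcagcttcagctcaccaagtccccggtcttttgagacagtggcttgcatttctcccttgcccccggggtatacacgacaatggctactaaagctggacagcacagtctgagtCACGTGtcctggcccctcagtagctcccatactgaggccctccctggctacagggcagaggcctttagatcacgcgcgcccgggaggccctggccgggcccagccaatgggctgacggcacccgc

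The E-box of Slc25a13 begins 125 bases before the start. Over the 300-base windows from 250 bases before to 50 after each start, and counting either strand, CACGTG was found in 24 of the 125 members with a RefSeq promoter (19.2%) and in 8.09% of 27025 genes. Among members that rose with tau it was in 3 of 11, Slc31a2, Slc25a13 and Slc27a1, and among those that fell in 1 of 7, Slc13a3. The core of the interferon-stimulated response element was in 1.6% of members and 3.99% of genes, and GAGGAAGT, a core of PU.1 sites, in 2.4% and 3.69%. None of the promoters of members that rose or fell held either of these. Such matches describe letters in a window and not binding.

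Among 23 amino acid carriers tested, 6 rose with tau and 2 fell, where 7.67% of all genes rose and 7.17% fell, and 15 did not pass. The median log2 fold change was 0.32. Slc38a6, of the sodium-coupled neutral amino acid family (ENSMUSG00000044712, chr12:73286779-73354049, plus strand), measured 131.8, 216.2, 94.5, 83.4, 75.5 and 64.0 CPM, with both P301S/E4 libraries above the other 4. Its log2 fold change was 1.24 (SE 0.19, adjusted p 0.00089 in edgeR), and 0.99 without E4/TREM2- (adjusted p 0.081). Slc36a4, a proton-coupled amino acid transporter (ENSMUSG00000043885, chr9:15709738-15743361, plus strand), measured 39.4, 50.7, 21.1, 21.4, 16.8 and 19.1 CPM and rose by 1.26 (SE 0.19, adjusted p 0.00076 in edgeR). Slc6a6, the taurine transporter, measured 278.2, 360.7, 239.2, 255.8, 177.5 and 170.4 CPM, so that all 4 tau libraries were above both E4 libraries. It rose by 0.80 (SE 0.13, adjusted p 0.0011 in edgeR), and by 0.68 without E4/TREM2- (adjusted p 0.078).

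The heavy chain Slc3a2 rose, and of the light chains in the main test that bind it Slc7a8 fell. Both calls were lost without E4/TREM2+ and also without E4/TREM2-. Slc7a11, also of family 7, was not in the main test. Its CPM, given below, was higher in both P301S/E4 libraries than in the E4 libraries. Slc3a2 measured 244.3, 231.2, 146.1, 165.3, 140.2 and 155.3 CPM and rose by 0.62 (SE 0.14, adjusted p 0.0077 in edgeR). Only the P301S/E4 libraries were high; both P301S/EKO libraries lay near the E4 libraries. Slc7a8, a light chain for neutral amino acids, measured 209.9, 226.4, 269.7, 237.3, 279.8 and 310.3 CPM and fell by 0.50 on the log2 scale (SE 0.13, adjusted p 0.020 in edgeR). Slc7a5, the light chain for large neutral amino acids, was at 8.73 to 15.6 CPM with a log2 fold change of -0.76 (SE 0.26) that did not pass. Slc7a7, the light chain for cationic amino acids, stood at 0.14 (SE 0.16).

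Slc7a11, the cystine-glutamate antiporter, was the member that failed the expression filter and so was not in the main test. It measured 7.39, 21.0, 1.92, 2.27, 1.18 and 2.65 CPM, from 42, 173, 7, 7, 4 and 10 UMIs. Both P301S/E4 libraries were above the other 4, and P301S/E4/TREM2- was highest. The log2 ratio of P301S/E4 to E4 was 2.65 (95% counting interval 1.19 to 4.59) in TREM2+ and 2.98 (2.07 to 4.07) in TREM2-. Fitted without an expression filter, its log2 fold change was 2.81 with tau and 2.66 with APOE4. That fit took the spread of each gene wholly from a trend over all genes. Slc7a11 too reached 100 UMIs only through P301S/E4, so the rule favoured these differences. Its fitted p supports nothing further. The annotation places a processed pseudogene on the same strand within Slc7a11 (GRCm38 chr3:49892526-50443614).

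Slc1a3, a glutamate transporter best known from astrocytes, measured 353.2, 282.4, 258.1, 286.0, 195.5 and 191.9 CPM, and all tau libraries were above both E4 libraries. It rose by 0.65 (SE 0.15, adjusted p 0.0096 in edgeR). The 6 astrocyte markers summed to 101.0, 79.2, 68.4, 177.3, 50.3 and 74.6 CPM, and their part in the change of Slc1a3 was not tested. Slc1a2, the other main glutamate transporter of astrocytes, followed another order, 49.8, 36.9, 31.0, 116.9, 49.7 and 59.2 CPM, highest in P301S/EKO/TREM2-, where the astrocyte markers were also highest. Its UMIs were limited by the rule on nuclei, of which it is 1 of the 5 genes. Slc1a5, a glutamine transporter, was at 3.82 to 6.11 CPM with a log2 fold change of -0.01 (SE 0.40).

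Slc43a3, which carries purine nucleobases although its family is listed with amino acids, measured 14.4, 31.5, 16.2, 9.74, 5.58 and 6.64 CPM. It rose by 1.81 (SE 0.37, adjusted p 0.0056 in edgeR) and all tau libraries were above both E4 libraries. P301S/E4/TREM2-, the highest library, also held the most nuclei with Mki67 or Top2a. Without those nuclei its Slc43a3 level was 23.3 CPM and the log2 fold change was 1.60 (adjusted p 0.0057 in edgeR). Without that whole library the log2 fold change was 1.04 (adjusted p 0.035). The call was lost without E4/TREM2+ (1.84, adjusted p 0.11) and without E4/TREM2- (1.77, adjusted p 0.15). Slc36a2, another proton-coupled amino acid transporter, fell by 1.11 on the log2 scale (SE 0.32) at low levels of 4.58 to 12.1 CPM.

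**Figure D2:**
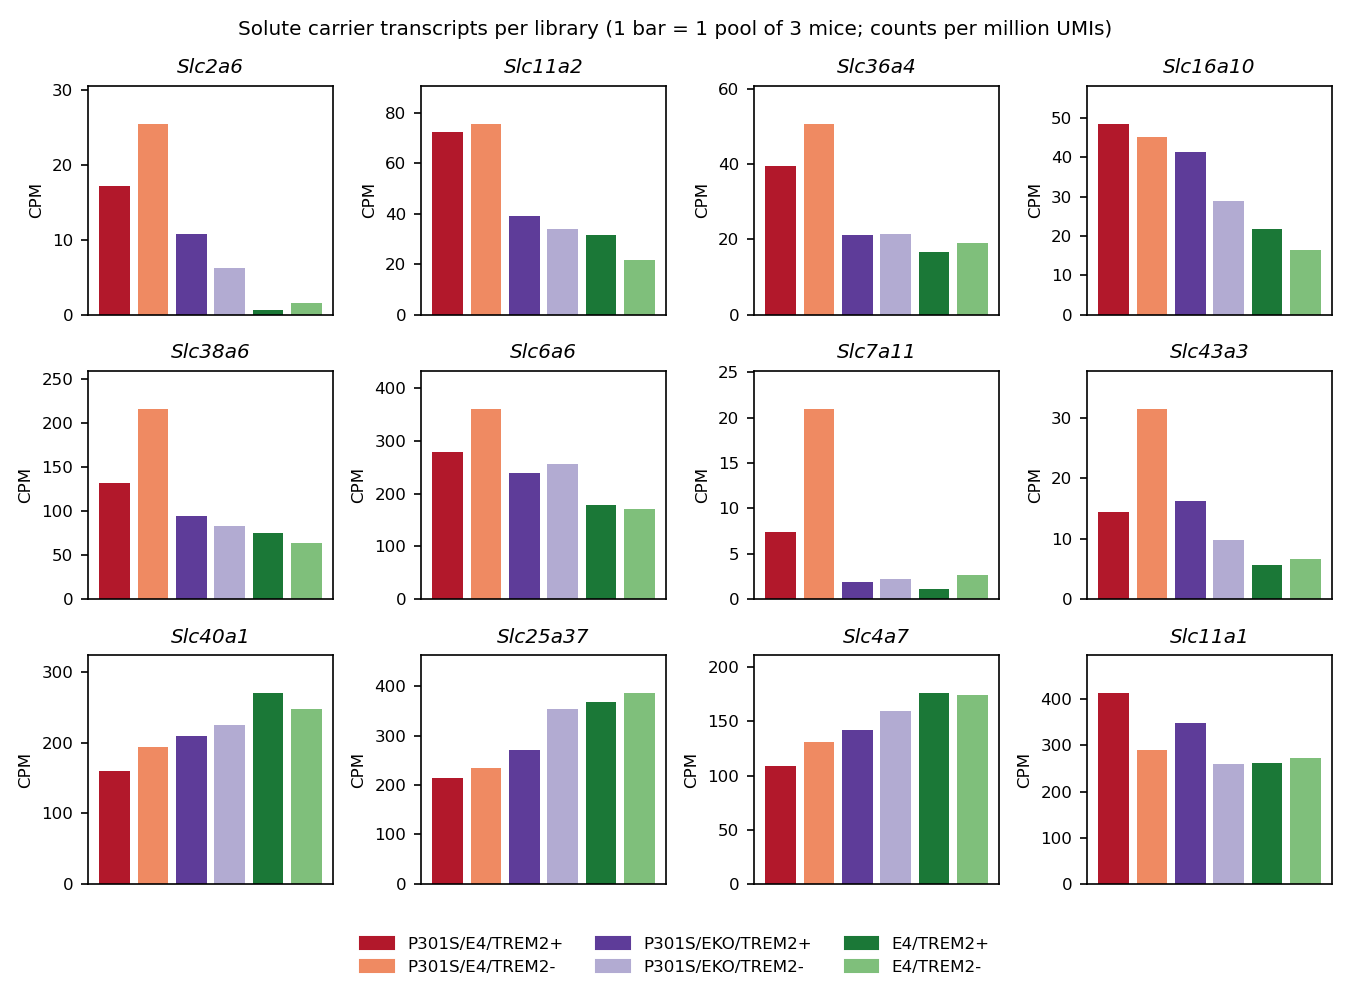
CPM of 12 solute carriers in each library, 1 bar for each pool of 3 mice, coloured by genotype. Slc2a6, Slc11a2, Slc36a4, Slc38a6 and Slc7a11 are highest in both P301S/E4 libraries, Slc40a1, Slc25a37 and Slc4a7 are lowest there, and Slc11a1 is highest in the TREM2+ libraries of the 2 tau backgrounds.

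Of 22 carriers of iron and other metals tested, 2 rose with tau, 3 fell and 17 did not pass, beside 7.67% and 7.17% of all genes. Their median log2 fold change was -0.00. Slc11a2, which brings ferrous iron and other divalent metals into the cytosol (ENSMUSG00000023030, chr15:100387898-100425072, minus strand), measured 72.3, 75.5, 39.3, 34.1, 31.7 and 21.8 CPM. Both P301S/E4 libraries were about level with each other and above the other 4. It rose by 1.42 (SE 0.18, adjusted p 0.00017 in edgeR). Slc40a1, the iron exporter ferroportin (ENSMUSG00000025993, chr1:45908068-45926523, minus strand), measured 160.1, 194.9, 209.8, 226.0, 270.4 and 247.9 CPM, with no overlap between the P301S/E4 and the E4 libraries. It fell by 0.62 on the log2 scale (SE 0.13, adjusted p 0.0063 in edgeR), and by 0.48 without E4/TREM2+ (adjusted p 0.20). Slc25a37, the mitochondrial iron importer mitoferrin, measured 214.5, 234.8, 270.5, 354.5, 367.4 and 385.9 CPM and fell by 0.81 (SE 0.13, adjusted p 0.0010 in edgeR). Without E4/TREM2+ it fell by 0.74 (adjusted p 0.070).

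Slc11a1, the divalent metal transporter of phagosomes and the paralog of Slc11a2, did not pass. It measured 413.2, 290.5, 348.2, 260.1, 263.1 and 271.8 CPM, and its log2 fold change with tau was 0.30 (SE 0.15, adjusted p 0.23 in edgeR). Other genes of iron handling came from a list of 16, of which 13 were tested. Ftl1 (ferritin light chain) rose by 0.98, Trf (transferrin) fell by 0.77, Hfe fell by 0.68 and 10 did not pass. Over all genes, 7.67% rose and 7.17% fell.

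The zinc importers Slc39a12 and Slc39a10 fell. Slc39a12 measured 4.93, 6.55, 8.79, 8.44, 17.3 and 15.7 CPM and fell by 1.58 on the log2 scale (SE 0.28, adjusted p 0.0022 in edgeR), or by 1.45 without E4/TREM2+ (adjusted p 0.083). Slc39a10 measured 38.5, 28.3, 36.0, 48.7, 54.1 and 49.6 CPM and fell by 0.71 (SE 0.21, adjusted p 0.042), a call lost in 7 of 16 alternatives, and a long non-coding gene overlaps it on the same strand. Slc31a2, a copper transporter, rose by 0.60 (SE 0.19, adjusted p 0.0498), a call lost in 6 of 16 alternatives. Of 3 genes of zinc and metal buffering, the metallothioneins Mt2 and Mt1 rose by 1.86 and 0.92, beside 7.67% of all genes that rose. Mtf1, their transcription factor, did not pass (-0.06).

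Slc16a10, a transporter of aromatic amino acids in the monocarboxylate family, measured 48.4, 45.2, 41.2, 28.9, 21.7 and 16.5 CPM, and all tau libraries were above both E4 libraries. It rose by 1.24 (SE 0.19, adjusted p 0.00077 in edgeR). Slc16a6 of the same family fell by 0.42 (SE 0.13), a call that held in only 7 of 16 alternatives. Slc16a3, a lactate exporter, stayed at 18.8 to 21.5 CPM, with a log2 fold change of 0.09 (SE 0.20). Its chaperone Bsg fell by 0.58. Slc27a1, a fatty acid transporter, measured 27.6, 34.2, 19.8, 14.9, 12.6 and 11.7 CPM and rose by 1.28 (SE 0.23, adjusted p 0.0023 in edgeR), while the other 5 carriers of lipids and bile acids had log2 fold changes of -0.63 to 0.11 and did not pass. The ascorbate transporter Slc23a2 was the only vitamin carrier of 9 that rose (0.58, SE 0.17). Beside these counts of lipid and vitamin carriers, 7.67% of all genes rose and 7.17% fell.

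Of 35 mitochondrial carriers, 2 rose with tau, 1 fell and 32 did not pass, beside 7.67% of all genes that rose and 7.17% that fell. Slc25a25, an ATP-magnesium and phosphate carrier, measured 45.2, 44.4, 40.4, 26.9, 23.5 and 21.0 CPM and rose by 0.95 (SE 0.20, adjusted p 0.0056 in edgeR). Slc25a13, an aspartate-glutamate carrier, measured 21.8, 17.1, 14.8, 9.74, 9.11 and 9.82 CPM and rose by 0.95 (SE 0.26, adjusted p 0.027). The phosphate carrier Slc25a3 stood at 0.20 (SE 0.12) and the pyrimidine nucleotide carrier Slc25a36 at 0.26 (SE 0.13).

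Of 27 ion carriers tested, 0 rose and 2 fell, beside 7.67% and 7.17% of all genes, and 25 did not pass. Slc4a7, a sodium-bicarbonate cotransporter, measured 108.9, 131.0, 142.5, 159.4, 176.1 and 174.4 CPM and fell by 0.62 on the log2 scale (SE 0.13, adjusted p 0.0060 in edgeR). Slc24a2, a sodium-calcium-potassium exchanger of neurons, fell by 1.27 (SE 0.28). Slc17a7, the vesicular glutamate transporter of excitatory neurons, measured 5.46, 4.00, 10.2, 21.4, 17.3 and 13.8 CPM and fell by 1.80 (SE 0.37, adjusted p 0.0059 in edgeR), or by 1.46 without E4/TREM2+ (adjusted p 0.19). The 8 neuron markers were lowest in the same libraries, at 109.5 and 65.7 CPM in P301S/E4 against 152 to 179 CPM in the other 4. Among these markers, Snap25, Syt1, Meg3 and Rbfox1 had their UMIs limited by the rule on nuclei. The part of the markers in these changes was not tested. Slc13a3, a dicarboxylate transporter, fell by 1.82 (SE 0.42) at 1.23 to 10.9 CPM. It is a member only through the E4 background, where it was highest, so the rule favoured this difference.

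Some carriers of the fixed list are found on endosomes and lysosomes. Of these, Slc15a3, Slc15a4, Slc38a9, Slc29a3 and Slc46a1 did not pass the test with tau, beside 14.8% of all genes called. They are examples and not all members of these membranes. Slc2a6 of intracellular membranes, which rose, is not among them. Slc15a3 and Slc15a4, which export histidine and peptides from the endolysosome, had log2 fold changes with tau of -0.06 (SE 0.13) and 0.02 (SE 0.15). Slc38a9, the arginine sensor of the lysosome, measured 296.9, 289.7, 311.1, 257.1, 319.8 and 302.6 CPM, a log2 fold change of -0.15 (SE 0.12). Slc29a3, the lysosomal nucleoside exporter, stood at -0.29 (SE 0.13) and the folate carrier Slc46a1 at -0.61 (SE 0.22, adjusted p 0.096 in edgeR). Their partners were read from fixed lists. Of 20 genes of amino acid sensing at the lysosome, 7 rose with tau, 1 fell and 12 did not pass, beside 7.67% and 7.17% of all genes. The gene that fell was Sesn1, a leucine sensor (by 0.48). Examples of those that rose are Rragd (2.37) and Rragc (0.87), small GTPases of the lysosome, and Fnip2 (2.00), a partner of folliculin. The transcription factor Mitf rose by 1.23. None of 7 genes of endolysosomal Toll-like receptor signalling linked to Slc15a4 was called, beside 14.8% of all genes in either direction.

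APOE4 was compared in tau mice, as P301S/E4 minus P301S/EKO, a contrast that shares the P301S/E4 libraries with the tau contrast. Of 165 members, 5 rose, where 1.88% of all genes rose, and 2 fell, where 1.25% fell. In either direction this was 4.24% of members against 3.14% of genes, and the median was 0.11 over members and 0.01 over all genes. The members called include Slc6a8, whose difference the rule favoured, while the genes at large were not chosen by that rule. The P301S/E4 libraries lay above both P301S/EKO libraries for 51 members, against 22.9% of all genes, and below both for 25, against 22.3%. Border-associated macrophage markers summed to 358.1 and 410.8 CPM in P301S/E4 against 132.9 and 183.8 CPM in P301S/EKO. Without nuclei holding markers of other cell types 4 members were called, all of which had risen: Slc36a4 (1.15), Slc11a2 (0.98), Slc38a6 (0.93) and Slc3a2 (0.60). The part of the marker difference in the other calls was not tested. The counting interval of single pairs lay above 0 for 32 members in TREM2+ (12.4% of genes) and 54 in TREM2- (25.4%), and below 0 for 21 (17.0%) and 22 (17.5%).

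Slc6a8, the creatine transporter, had the largest rise. It measured 6.34, 14.1, 1.92, 2.27, 6.17 and 5.04 CPM, from 36, 116, 7, 7, 21 and 19 UMIs. Both P301S/EKO libraries were the lowest of the 6, and P301S/E4/TREM2- was the highest. Outside P301S/E4 it held 54 of its 206 UMIs, so it is a member only through that background and the rule favoured this difference. The log2 fold change was 2.22 (SE 0.45, adjusted p 0.020 in edgeR), and the call was lost in 5 of 16 alternatives, including those without P301S/E4/TREM2-, P301S/EKO/TREM2- or E4/TREM2+. The other members that rose were Slc36a4 (1.06, SE 0.19), Slc11a2 (1.01, SE 0.17), Slc38a6 (0.94, SE 0.19) and the heavy chain Slc3a2 (0.61, SE 0.14). Their adjusted p in edgeR was 0.010, 0.0073, 0.019 and 0.030. Without P301S/EKO/TREM2-, 1 member was called in all, and it was none of these; Slc11a2 then stood at 1.03 (adjusted p 0.052) and Slc36a4 at 0.95 (adjusted p 0.19).

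The fallers were the neuronal genes Slc17a7 (-1.74, SE 0.38) and Slc24a2 (-1.24, SE 0.28), the latter at 5.98, 6.79, 12.4, 17.9, 15.6 and 13.8 CPM. Both calls were lost without nuclei holding markers of other cell types, where Slc17a7 stood at -1.54 (adjusted p 0.064 in edgeR). Slc2a6 had a log2 fold change of 1.30 and Slc27a1 of 0.83 with APOE4, and neither passed.

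**Figure D3:**
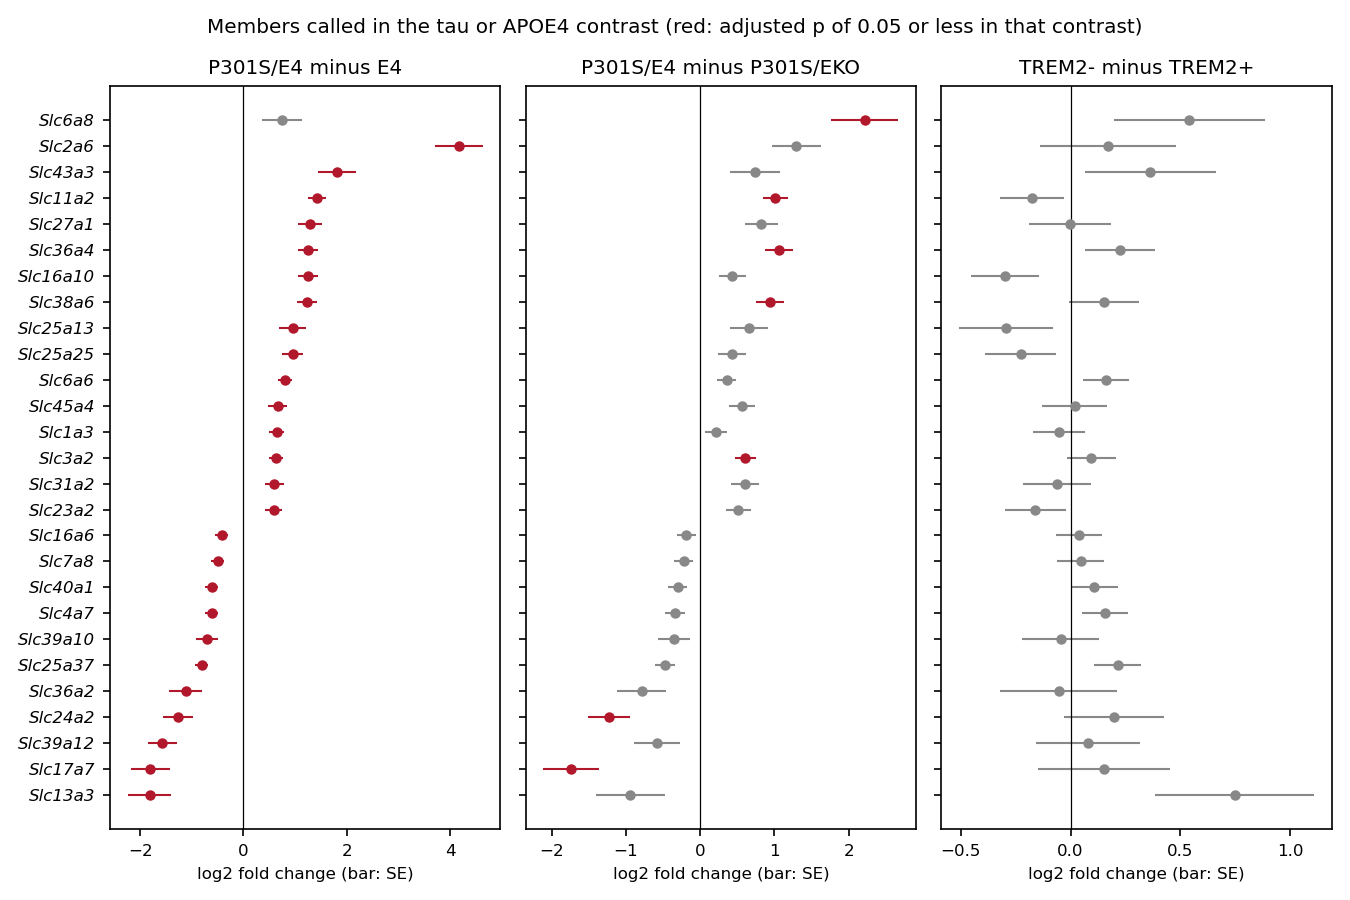
Log2 fold changes with standard errors of the 27 members called with tau or APOE4, in the tau contrast (left), the APOE4 contrast (middle) and the TREM2 contrast (right), red where the adjusted p was 0.05 or less in that contrast. The 3 panels have different scales, the first 2 share the P301S/E4 libraries, and no member is red in the TREM2 panel.

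TREM2 deletion was compared over 3 backgrounds, TREM2- minus TREM2+. No member was called by edgeR, and none by DESeq2, against 0.174% of all genes (21 of 12054), of which 0.0581% rose and 0.116% fell. At an unadjusted p of 0.05 or less in edgeR 5 of 165 members passed, beside 781 of 12054 genes. The smallest adjusted p of a member was 0.55. The median was 0.05 over members and 0.01 over all genes. TREM2- libraries were above all TREM2+ libraries for 7 members, against 2.63% of all genes, and below for 3, against 4.45%. Without an expression filter 2 members were called. They were Slc7a11 (1.22, adjusted p 0.032 in edgeR), a member only through P301S/E4, and Slc1a2 (0.55, adjusted p 0.033), whose UMIs the rule on nuclei limits. That fit took the spread of each gene wholly from a trend over all genes, so neither p is read as support. The iron carrier Slc11a2 stood at -0.18 (SE 0.15) and Slc40a1 at 0.11 (SE 0.11).

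Within single backgrounds each TREM2 pair is 1 library against 1, with no test, and a 95% counting interval covers counting error only. In P301S/E4 the interval lay above 0 for 42 members, against 23.5% of 11453 genes with 100 or more UMIs, and below 0 for 22, against 15.6%. In P301S/EKO it lay above for 13 (8.19% of genes) and below for 18 (13.1%), and in E4 for 6 (8.29%) and 11 (12.2%). Within P301S/E4, the members highest in TREM2- over TREM2+ were Slc26a11, an anion transporter (log2 ratio 1.77, interval 1.18 to 2.42), Slc13a3 (1.74, 0.55 to 3.16), Slc7a11 (1.50, 1.01 to 2.03), Slc12a7, a potassium-chloride cotransporter (1.34, 0.86 to 1.84), and Slc39a14, an importer of zinc and iron (1.31, 1.00 to 1.63). Slc39a14 measured 19.4, 48.0, 23.6, 19.5, 17.6 and 19.1 CPM, so that P301S/E4/TREM2- alone was high.

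Nuclei with a UMI of Ahnak or Cd38 gave 9.98% of the UMIs of P301S/E4/TREM2- against 0.912% to 2.74% elsewhere. In that library they held 39 of 116 UMIs of Slc6a8, 34 of 139 of Slc26a11 and 19 of 173 of Slc7a11. In its other nuclei Slc6a8 was at 10.4 CPM, Slc26a11 at 14.1 CPM and Slc7a11 at 20.7 CPM. At the lower end of the same pair were Slc2a1 (-0.75, interval -1.12 to -0.38), Slc25a5, the mitochondrial ADP-ATP carrier (-0.67, -0.83 to -0.51), and Slc11a1 (-0.51, -0.59 to -0.43). Slc11a1 was also lower in P301S/EKO (-0.42, -0.55 to -0.29) while the E4 ratio was 0.05 (-0.08 to 0.18). Whether these backgrounds differ was not tested, and the TREM2 contrast gave -0.28 (SE 0.13, adjusted p 0.75 in edgeR).

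**Figure D4:**
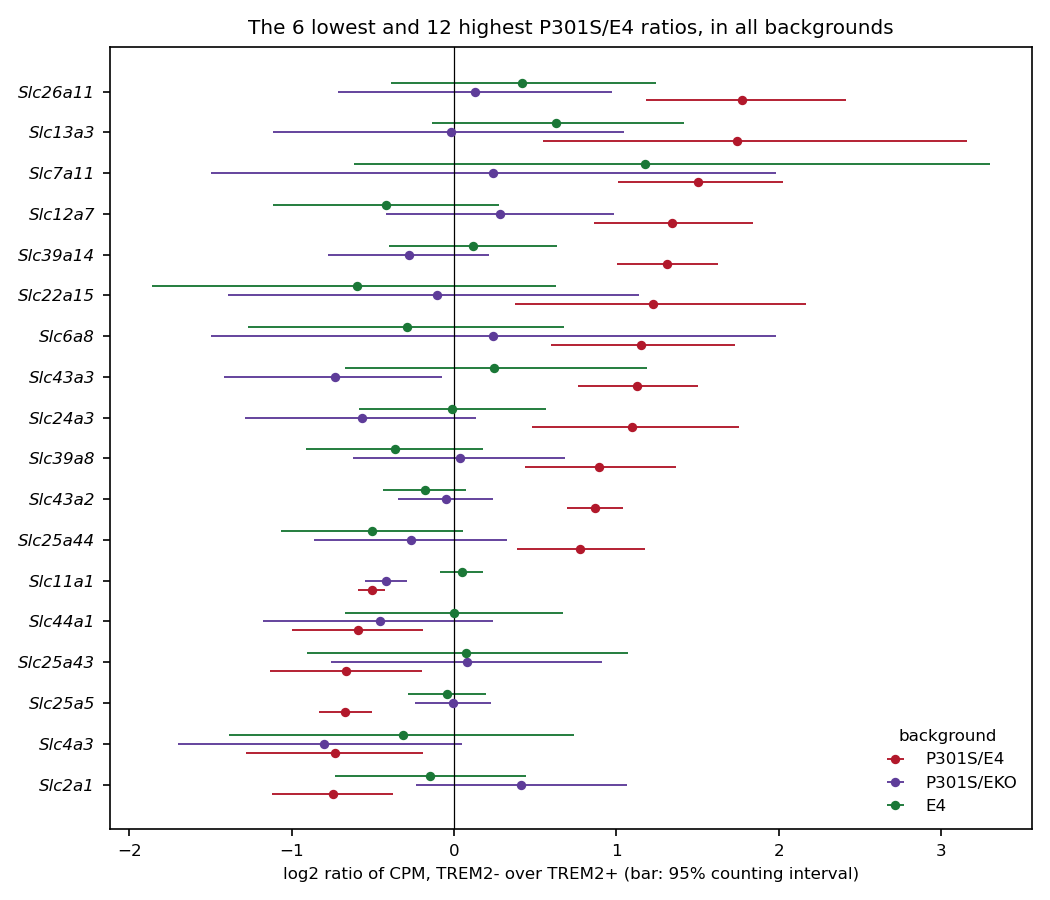
Log2 ratio of CPM, TREM2- over TREM2+, for the 6 members with the lowest and the 12 with the highest ratio in P301S/E4, shown in each background with 95% counting intervals. Members were chosen for their P301S/E4 ratio, so that these points are extreme by construction; the P301S/EKO and E4 intervals reach 0 for all of them except Slc11a1 and Slc43a3 in P301S/EKO.

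Nuclei in and out of a disease-associated state were compared inside each library. A nucleus counted as in the state at 3 or more UMIs of a fixed list without Slc genes, after thinning to 500 UMIs. It counted as out at 0. Of nuclei with 500 or more UMIs, 36.3% to 83.7% were in (49.1% to 96.8% of all nuclei without thinning). In the E4 libraries, without tau P301S, 36.3% and 44.0% were in. The state is thus a cut in UMIs of this list and does not by itself show a response to disease. Nuclei under 500 UMIs were left out, 1824 of them in P301S/EKO/TREM2-, 1488 and 417 in the E4 pair and 0 in the other libraries. The list had 20 genes, of which 19 were found. They were Lpl, Cst7, Itgax, Spp1, Axl, Csf1, Cd9, Ctsb, Ctsd, Ctsz, Ccl6, Cd63, Ank, Cadm1, Lilrb4a, Gpnmb, Cd68, Igf1 and Apobec1. Between libraries, 17 of them rose with tau and 3 (Spp1, Itgax and Lpl) fell with TREM2 deletion. Only 104 and 106 nuclei were out of the state in the P301S/E4 libraries. Of 106 members tested 1 was called, against 1.6% of 8081 genes: Slc8a1, the sodium-calcium exchanger, fell by 0.30 on the log2 scale (SE 0.09, adjusted p 0.043 in edgeR). In and out of the state it measured 176 and 273 CPM in P301S/E4/TREM2+ and 230 and 325 CPM in E4/TREM2+, but 184 and 171 CPM in P301S/E4/TREM2-. The call was lost in 10 of 18 alternatives.

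The authors' deposited table of TERM against homeostatic nuclei, where TERM is their name for a microglial state, lists all 166 members. In it 16 had an adjusted p of 0.05 or less, all with a positive log fold change, led by Slc7a11 (4.31), Slc6a8 (3.39), Slc26a11 (2.93), Slc27a1 (2.06), Slc36a4 (1.77) and Slc11a2 (1.60). In the authors' deposited table of P301S/E4/TREM2+ against P301S/E4/TREM2-, 4 members passed and all were negative: Slc43a2 (-2.02), Slc6a6 (-0.80), Slc36a1 (-0.80) and Slc38a6 (-0.71). The authors' deposited marker table lists Slc43a3 for the group Prol (4.33) and Slc15a3 for the group Inflam (1.23). The p-values in these tables treat nuclei as replicates and the log base is not stated, so the values are not set against the fold changes above. The shares over all genes of these tables are not given here. The counts and their directions are therefore not read as traits of solute carriers.

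As a description over the 6 libraries, the genes whose log2 CPM followed a member most closely were Itga5, Tspyl3 and Idua for Slc11a2, Zdhhc21, Nsmce2 and Vps29 for Slc2a6, and Tmem87b, Cluh and Rgl2 for Slc38a6. Pearson r was 0.99 or more for these 9 genes, as the closest among all genes over 6 points that share depth and genotype.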

How the data were processed

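Per the labels, PU.1-sorted nuclei from mouse hippocampus were sequenced with 10x Genomics v3.1 chemistry, 1 library of 3 pooled mice for each of 6 genotypes. The authors deposited raw UMI counts (Cell Ranger 3.0.1 per the file headers, mm10 per the submitters' processing notes). The authors' deposited tables hold a log fold change, taken as a score because its base is not stated, and p-values calculated over nuclei.

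Nuclei with 200 or more genes, 5% or fewer mitochondrial UMIs and fewer than 5 UMIs over Snap25, Syt1, Meg3, Rbfox1 and Slc1a2 were kept. No clustering, cell type naming or doublet caller was run; an alternative left out nuclei above 3 times the median UMI of their library. Counts were summed per library and fitted with terms for TREM2 genotype and background in edgeR 4.0.16 (under R 4.3.3), using TMM factors, filterByExpr, the quasi-likelihood F test (2 residual degrees of freedom) and Benjamini-Hochberg adjustment at 0.05. The standard error (SE) is the log2 fold change divided by the square root of F. With 1 library per genotype, p-values rest on the agreement of libraries across backgrounds or TREM2 genotypes. The state fit used 12 sums with library as a block. Library pairs were compared by exact conditional binomial (Clopper-Pearson) intervals at 95%, which cover counting error only. In data simulated with known changes the tau fit recovered 82.5% of 2-fold and 98.0% of 4-fold changes, with 6 false calls. The simulation gave every gene the same dispersion and held no outlying library. Its figures check the fit and do not measure how far the calls here can be trusted.

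Alternatives were RLE factors, library totals, no expression filter, DESeq2 1.42.0, other limits on nuclei, other state cuts and leaving out each library. Those without nuclei holding Ahnak or Cd38, or Mki67 or Top2a, were added after values had been seen. The members and lists were chosen with earlier results of these data known. Genes named are called members (up to 15 in each direction), the 10 members with the most UMIs and a fixed list of 20 carriers; Slc26a11, Slc12a7, Slc39a14, Slc13a3, Slc6a8, Slc25a5, Slc1a2 and Slc43a2, where given for a TREM2 pair or without the filter, were chosen after their values were seen. Identifiers of all 166 members matched GENCODE vM21 (GRCm38), and 125 had a RefSeq promoter. Clec7a was not analysed here.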

Additional observations from a re-analysis of the deposited data

Results flagged for a closer look

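For 7 of the named members, library pairs moved in opposite directions with counting intervals that do not reach 0 on either side. The difference between the pairs was not tested for any of them, since each pair is 1 library against 1. In all, 15 members of 166 showed such pairs. The share of all genes with such pairs was not calculated, so this count is not read as a trait of solute carriers. The value given is the distance between the highest and the lowest log2 ratio.

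Slc43a3 was 1.13 higher in TREM2- than in TREM2+ in P301S/E4 and 0.73 lower in P301S/EKO (-0.73), a distance of 1.86 on the log2 scale. Slc39a10 was the reverse, at -0.45 in P301S/E4 and 0.44 in P301S/EKO, a distance of 0.885. The glutamate transporter Slc1a3 stood at -0.32 and 0.15 in the same pairs, a distance of 0.471. Slc16a6 stood at 0.20 and -0.22, a distance of 0.419. Slc7a8 was lower in P301S/EKO (-0.18) and higher in P301S/E4 (0.11) and E4 (0.15), a distance of 0.333. Slc25a36 stood at -0.16 in P301S/E4 and 0.16 in E4, a distance of 0.314. For Slc9a9, a sodium-proton exchanger of endosomes, the tau pairs were opposed: P301S/E4 over E4 gave -0.18 in TREM2+ and 0.23 in TREM2-, a distance of 0.405.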

How the results depend on the processing

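None of the members called with tau or APOE4 changed direction in that contrast under any alternative run. No paired analysis was possible because each genotype has 1 library and the labels give the groups no shared replicate numbers. Of the 26 members called with tau, 4 (Slc2a6, Slc11a2, Slc36a4 and Slc16a10) were called in all 16 alternatives, 13 were lost only without 1 or either E4 library and 9 were lost under other alternatives too. The tau count was 17 with DESeq2 and 38 without an expression filter, and ran from 7 to 45 when 1 library was left out: 7 without E4/TREM2+ (6 of them among the 26), 8 without E4/TREM2- and 45 without P301S/E4/TREM2+. With 1 library left out, the lone library of an arm is assumed to vary like the others. Slc2a6 is a member only through P301S/E4, so its calls under the alternatives are no further support. The tau calls of Slc1a3, Slc25a25, Slc27a1, Slc3a2, Slc43a3, Slc4a7 and Slc7a8 were each lost without E4/TREM2+ and also without E4/TREM2-. The APOE4 count of 7 became 17 without an expression filter, 4 with DESeq2 and 4 without nuclei holding other cell type markers, and ran from 1 without P301S/EKO/TREM2- to 32 without P301S/E4/TREM2+, with 3 without E4/TREM2+. The TREM2 count of 0 became 2 without an expression filter and ran from 0 to 1 with a library left out. The state count of 1 was 0 with DESeq2, with nuclei of 500 or more genes, without Ahnak or Cd38 nuclei and without thinning, 2 without other cell type markers or without high-UMI nuclei, 16 with no limit on neuronal UMIs, and 0 to 1 with a library left out. The cause of these shifts was not tested. The shares of all genes called under each alternative are not given here, so these counts are not read as traits of solute carriers. A count of 3 UMIs corresponds to 0.364 to 0.974 CPM, which limits members such as Slc2a6 in the E4 libraries.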

Other observations

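Carriers outside the Slc pattern were read from lists by symbol. Both tested Slco carriers, organic anion transporters, fell with tau, beside 7.17% of all genes. Slco2b1 measured 332.1, 392.7, 469.6, 481.5, 673.4 and 701.8 CPM and fell by 0.99 on the log2 scale (SE 0.12), and Slco4a1 fell by 1.80 (SE 0.37) from 40.0 and 37.4 CPM in E4 to 4.40 and 21.9 CPM in P301S/E4. Of 29 ABC transporters tested, 3 rose, 3 fell and 23 did not pass, beside 14.8% of all genes called in either direction. The cholesterol exporters Abca1 and Abcg1 rose by 1.08 (SE 0.14) and 1.13 (SE 0.14), and Abcd2, a peroxisomal fatty acid carrier, rose by 0.77 (SE 0.13). Abcb4, a phospholipid exporter, fell by 1.19 (SE 0.13), Abca9 by 1.11 (SE 0.12) and Abcg2 by 0.69 (SE 0.17). Abcg1 was the only listed transporter of this kind that rose with TREM2 deletion (0.65, SE 0.11, adjusted p 0.045 in edgeR), at 182.7, 341.7, 131.8, 178.6, 91.1 and 132.2 CPM, higher in TREM2- in each of the 3 backgrounds.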
